A study of Mus musculus with 7 samples.

Results

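The 10 genes described here, *Tnf*, *Tnfrsf1b*, *Nfkb1*, *Rela*, *Rel*, *Nfkb2*, *Relb*, *Nfkbia*, *Nfkbiz* and *Tnfaip3*, belong to the TNF and NF-κB pathway and were taken by name from the 25033 gene symbols counted in lineage depleted (lin-) bone marrow cells of mice with and without HRP-2. They were followed because *Tnf* was higher and *Nfkb1* lower in the knockout cells. The values of those genes thus chose the list and are given as a description, without a test, and the question was what the other 8 did. HRP-2, encoded by *Hdgfl2*, is a chromatin reader and a paralog of LEDGF/p75. The series holds 3 wild type (Hrp2+/+) and 4 knockout (Hrp2-/-) mice, 1 library each. Knockout mice carried the C57BL/6N-Hdgfrp2<tm1b (KOMP)Wtsi>/Tcp allele in the whole body, so the bone marrow environment lacked HRP-2 as well as the lin- cells. The marrow was taken at 6 to 8 weeks of age, after the early deaths that occur among knockout pups, and RNA was extracted from the isolated cells and sequenced from the 3′ end of the transcripts.

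NF-κB is a family of dimeric transcription factors built from p50 (from *Nfkb1*), p52 (from *Nfkb2*), RelA, c-Rel and RelB, and IκB proteins hold the inactive dimers in the cytoplasm. When TNF binds its receptors, the IκB kinases are activated, IκBα is degraded, and the freed dimers induce inflammatory genes together with their own brakes, IκBα (*Nfkbia*) and the ubiquitin-editing enzyme A20 (*Tnfaip3*). In bone marrow the pathway takes part in the survival of blood progenitors and in the output of myeloid cells during infection.

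The libraries held from 3525665 to 5605158 reads on genes, and the floor of 3 reads corresponded to 0.559 to 0.838 CPM, the count of a gene relative to a library size scaled with edgeR's TMM factors. Floors cover counting error only. Reads of *Hdgfl2* numbered 228, 156 and 168 in wild type and 13, 3, 8 and 2 in knockout mice, so every library matched its genotype label. Knockout replicate 3 stood apart in *Xist*, at 0.559 CPM against 228.5 CPM or more in the other 6 mice, and in the Y-linked *Ddx3y*, at 104.2 CPM against at most 0.775 CPM. By these genes that mouse read as male and the others as female, so sex was not balanced between genotypes. The ribosomal RNA precursor *Rn45s* took from 4.94% to 20.6% of the reads. Among progenitor genes, the most abundant, *Mpo*, which neutrophil precursors share, stood at 5743 ± 928.9 CPM in the wild type group (SD, n = 3) and 5884 ± 781.1 CPM in the knockout group (SD, n = 4), and *Myb* at 677.1 ± 56.2 CPM in the wild type group (SD, n = 3) and 686.3 ± 70.7 CPM in the knockout group (SD, n = 4), while 10 of the 14 genes of that list were lower in the knockout fit.

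All 10 genes passed the filter on low counts. Because 3′ end libraries give 1 fragment per transcript, CPM values of different genes were set side by side without division by length. *Nfkbia* was the most abundant, with a mean of 898.2 CPM over the 7 mice. *Rela* followed at 112.7, *Nfkb1* at 92.6, *Nfkbiz* at 79.6, *Tnfaip3* at 73.4 and *Tnfrsf1b* at 65.4 CPM. *Rel* stood at 31.2, *Tnf* at 15.9, *Nfkb2* at 12.2 and *Relb* at 10.2 CPM. Within the wild type group *Tnf* was the lowest of the 10, at a mean of 9.33 CPM against 12.7 CPM for *Nfkb2* and 10.9 CPM for *Relb*. Neighbours in this order, which came from the same 7 mice, were compared within each mouse by two-sided exact sign-flip permutation tests of log2(CPM + 1). Pairs with *Tnf* or *Nfkb1* are left without a p, since their values chose the list. No adjusted p is given, because the adjustment took in those pairs as well. Of the other pairs, the order held in 7 of 7 mice for *Nfkbia* over *Rela*, by 2.96 ± 0.47 (SD, n = 7) on the log2 scale, and for *Tnfrsf1b* over *Rel*, by 1.04 ± 0.25. Their unadjusted exact sign-flip p was 0.0156, the smallest that 7 mice allow. The remaining 3 did not differ beyond their spread, with unadjusted exact sign-flip p from 0.188 to 0.859. Thus *Nfkbiz*, *Tnfaip3* and *Tnfrsf1b* could not be ranked from one neighbour to the next, nor could *Nfkb2* and *Relb*. The place of *Tnf* differed with the genotype it was chosen on: it lay below *Nfkb2* in all 3 wild type mice and above it in all 4 knockout mice, which the pooled order does not show.

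*Tnf*, on chromosome 17 from 35199381 to 35202007 (ENSMUSG00000024401) of GRCm38, encodes the ligand, a cytokine that macrophages and other myeloid cells release. Its reads were 42, 35 and 34 in wild type and 103, 99, 114 and 86 in knockout mice. In CPM these were 9.19, 9.78 and 9.01 in wild type replicates 1 to 3 and 19.97, 20.5, 21.2 and 21.4 in knockout replicates 1 to 4. Every knockout mouse lay above every wild type mouse, with means of 9.33 ± 0.400 CPM in the wild type group (SD, n = 3) and 20.8 ± 0.658 CPM in the knockout group (SD, n = 4), a 2.23-fold difference. The fitted log2 ratio of knockout to wild type was 1.15 (SE 0.24), and 1.14 without knockout replicate 3. The spread within a genotype was smaller than counting alone gives: the SD was 4.28% of the mean in wild type and 3.17% in knockout cells, where Poisson counting gives 16.5% and 10.04%, so the closeness of the replicates is no measure of precision. *Tnf* lies 20.9 Mb from the targeted *Hdgfl2* on the same chromosome.

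*Tnfrsf1b* encodes TNFR2, a TNF receptor found mainly on blood and immune cells, and lies on chromosome 4 from 145213463 to 145246870 (ENSMUSG00000028599). It stood at 73.7, 60.6 and 63.9 CPM in wild type and 59.7, 65.7, 80.3 and 53.9 CPM in knockout mice. The genotypes overlapped, and the log2 ratio was -0.025 (SE 0.17). The other TNF receptor, *Tnfrsf1a*, which most cells express, ran from 132.5 to 148.2 CPM in wild type and from 119.0 to 176.7 CPM in knockout mice, with a log2 ratio of 0.082 (SE 0.15).

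**Figure D1:**
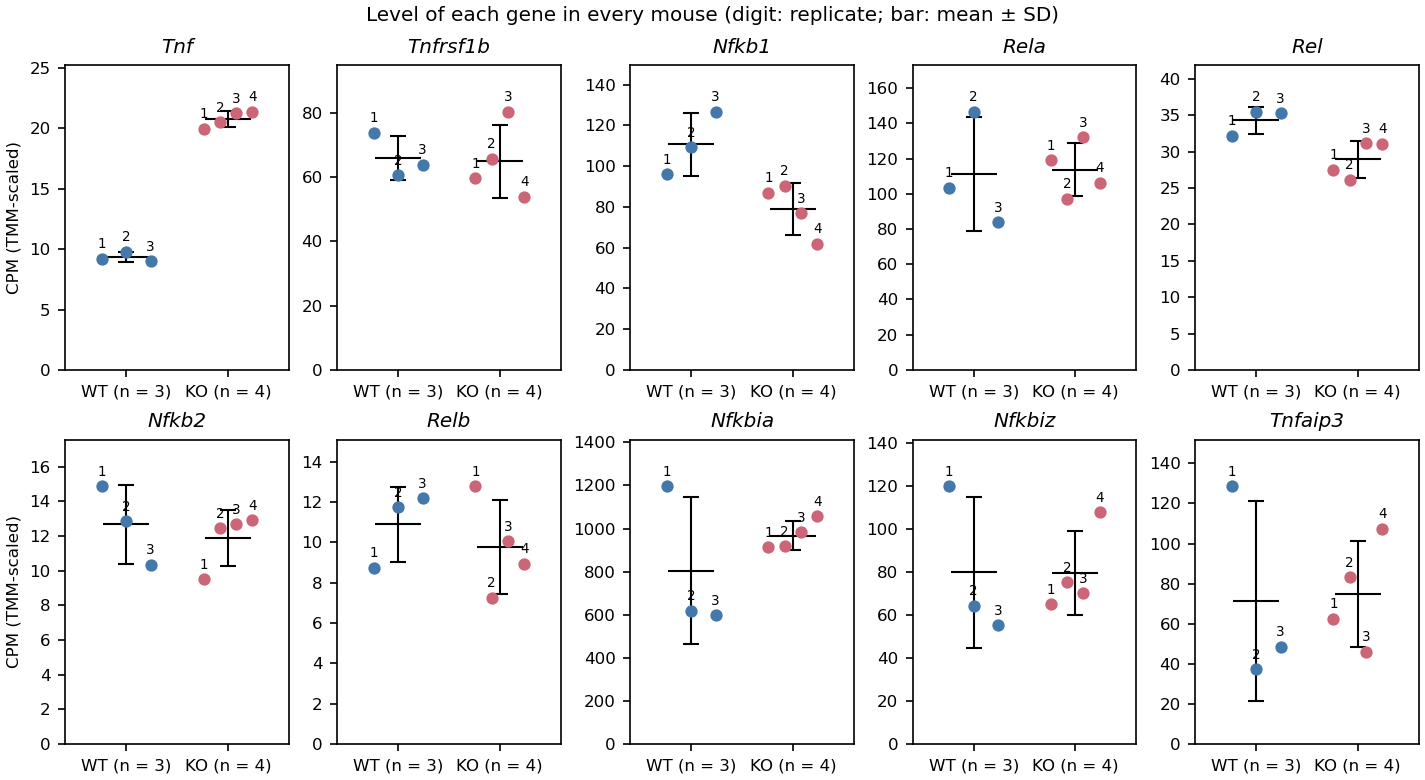
Level of each gene in CPM (y axis, linear and starting at 0) in the 3 wild type (WT) and 4 knockout (KO) mice. Each point is 1 mouse with its replicate number, and the bar gives the mean ± SD. The genotypes do not overlap for *Tnf*, *Nfkb1* and *Rel*, while wild type replicate 1 lies far above the other wild type mice for *Nfkbia*, *Nfkbiz* and *Tnfaip3*.

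Among the subunit genes, *Nfkb1* had lower values in the knockout cells, given without a test, and none of the other 4 passed the test. *Nfkb1* lies on chromosome 3 from 135584655 to 135691547 (ENSMUSG00000028163), and its product p105 acts both as an IκB and as the precursor of p50. It stood at 96.1, 109.2 and 126.7 CPM in wild type and 87.0, 90.4, 77.0 and 61.9 CPM in knockout mice. The highest knockout mouse lay just under the lowest wild type mouse. The means were 110.7 ± 15.4 CPM in the wild type group (SD, n = 3) and 79.1 ± 12.8 CPM in the knockout group (SD, n = 4), and the log2 ratio was -0.48 (SE 0.16), or -0.47 without knockout replicate 3. The annotation places another gene within *Nfkb1* on its strand, and other genes over *Nfkb2* on the opposite strand. As the strand counted is not stated, reads of these loci could be shared.

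*Rel*, on chromosome 11 from 23736847 to 23770970 (ENSMUSG00000020275), encodes c-Rel and was the only one of the other 8 genes whose genotypes did not overlap. It stood at 32.2, 35.5 and 35.3 CPM in wild type and 27.5, 26.1, 31.1 and 31.1 CPM in knockout mice. All knockout mice were lower, but the nearest mice of the genotypes stood at 31.1 and 32.2 CPM, and the log2 ratio of -0.24 (SE 0.19) did not pass (edgeR's quasi-likelihood test, adjusted p = 0.999). Among all 11265 genes tested the ranges of the genotypes were apart for 5.16%, with the knockout mice higher for 2.37% and lower for 2.79%. They were apart for 3 of these 10 genes, of which *Tnf* and *Nfkb1* were chosen on that contrast.

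*Rela*, on chromosome 19 from 5637483 to 5648130 (ENSMUSG00000024927), encodes the main activating subunit. It stood at 103.5, 146.6 and 83.8 CPM in wild type and 119.2, 97.2, 132.2 and 106.4 CPM in knockout mice, so that the knockout values lay within the range of the wild type values. The log2 ratio was 0.033 (SE 0.18), and its sign turned without wild type replicate 1 (-0.010), wild type replicate 3 (-0.13) or knockout replicate 3 (-0.047).

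The subunits of the non-canonical arm were low. *Nfkb2*, on chromosome 19 from 46304320 to 46312385 (ENSMUSG00000025225), stood at 14.9, 12.8 and 10.3 CPM in wild type and 9.499, 12.4, 12.7 and 12.9 CPM in knockout mice. *Relb*, whose product pairs with p52, lies on chromosome 7 from 19606217 to 19629438 (ENSMUSG00000002983) and stood at 8.75, 11.7 and 12.2 CPM in wild type and 12.8, 7.26, 10.1 and 8.95 CPM in knockout mice. Both overlapped between genotypes, with log2 ratios of -0.099 (SE 0.28) for *Nfkb2* and -0.15 (SE 0.31) for *Relb*. Without 1 mouse that of *Nfkb2* ran from -0.23 to 0.042, above 0 without wild type replicate 1, and that of *Relb* from -0.31 without knockout replicate 1 to -0.031 without knockout replicate 2. They rested on 35 to 68 reads in a library, and the wild type SDs, 17.9% and 17.1% of the mean, stood beside the 14.1% and 15.4% that counting gives, and in knockout cells they were 13.5% and 23.8% beside 13.3% and 14.6%.

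The 3 inhibitor genes varied most between wild type mice. *Nfkbia*, on chromosome 12 from 55489410 to 55492647 (ENSMUSG00000021025), encodes IκBα, which retains NF-κB in the cytoplasm. It stood at 1198, 618.9 and 599.5 CPM in wild type and 913.8, 917.3, 982.7 and 1057 CPM in knockout mice. Wild type replicate 1 was above every knockout mouse, and the other wild type mice were below all of them. The log2 ratio was 0.26 (SE 0.21) with all mice (edgeR's quasi-likelihood test, adjusted p = 0.999) and 0.67 (SE 0.15) without wild type replicate 1 (adjusted p = 0.519 by the same test). It was 0.11 without wild type replicate 2 and 0.091 without wild type replicate 3. In wild type cells the SD was 42.2% of the mean, where counting gives 1.75%, and in knockout cells 6.98%, where counting gives 1.47%.

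*Nfkbiz*, on chromosome 16 from 55811375 to 55838899 (ENSMUSG00000035356), encodes IκBζ, a nuclear IκB that is induced by the pathway and takes part in activating some of its targets. It stood at 119.9, 64.2 and 55.1 CPM in wild type and 64.9, 75.2, 70.1 and 107.9 CPM in knockout mice. Wild type replicate 1 and knockout replicate 4 were the high mice, and the log2 ratio was -0.012 (SE 0.26). *Tnfaip3*, the gene of A20, lies on chromosome 10 from 19000910 to 19015657 (ENSMUSG00000019850) and stood at 128.7, 37.4 and 48.5 CPM in wild type and 62.6, 83.3, 46.0 and 107.4 CPM in knockout mice. The same mice were high, and the wild type mice alone spanned 3.44-fold. Its log2 ratio of 0.052 (SE 0.52) had the largest SE of the 10 genes. Without wild type replicate 1 the log2 ratios were 0.42 (SE 0.22) for *Nfkbiz* and 0.80 (SE 0.29) for *Tnfaip3*, and neither passed (edgeR's quasi-likelihood test, adjusted p = 0.9997 for both).

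**Figure D2:**
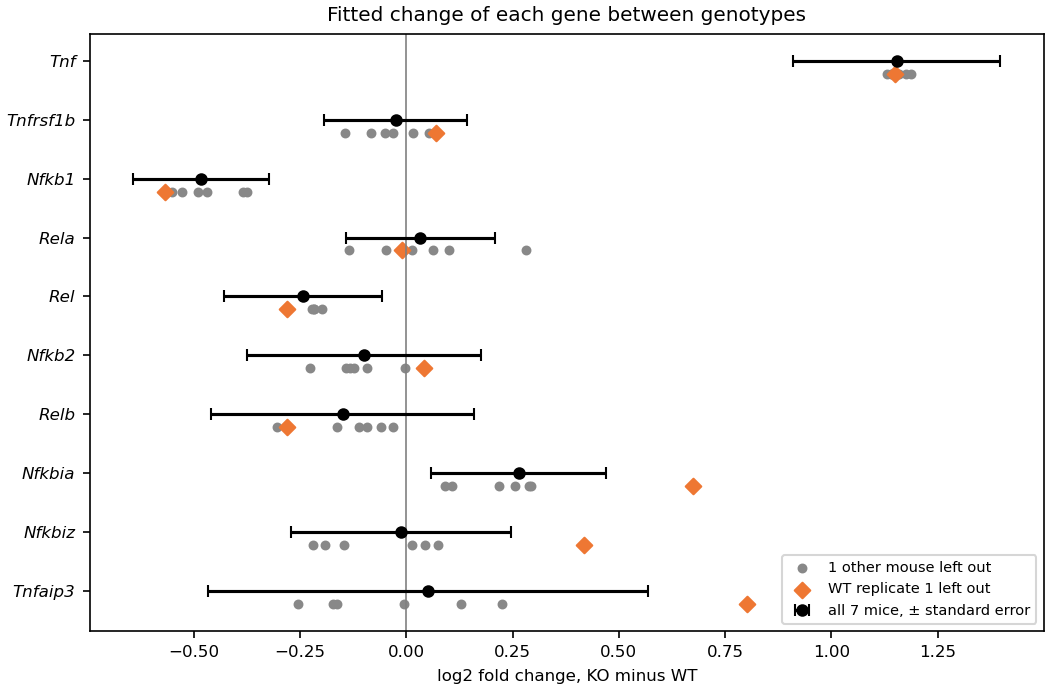
Log2 ratio of knockout (KO) to wild type (WT) for each gene (x axis), from edgeR's quasi-likelihood fit. Black points with bars are the fits with all 7 mice ± standard error, grey points the fits without 1 other mouse and orange diamonds the fits without wild type replicate 1, which lie at 0.67 for *Nfkbia*, 0.42 for *Nfkbiz* and 0.80 for *Tnfaip3*.

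Of the 8 genes other than *Tnf* and *Nfkb1*, 0 passed an adjusted p of 0.25, the threshold of the study, or of 0.05, by edgeR's quasi-likelihood test, edgeR's likelihood ratio test, DESeq2 or limma-voom, and 0 had an unadjusted p under 0.05 by any of these with all mice. Of all genes 0.0178% were called, 0.00888% in each direction, so 0 of 8 is near the background. An unadjusted p under 0.05 was found for 3.63% of all genes, 1.56% higher and 2.07% lower in knockout cells. Among the 8 genes 3 had a log2 ratio above 0 and 5 below, with a median of -0.019 and a range of -0.24 to 0.26, beside 49.8% above 0, 50.2% below and a median of -0.0014 over all genes tested. A p that misses the threshold does not show that levels were equal: the SEs of the 8 ran from 0.17 to 0.52 on the log2 scale.

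Within a genotype the inhibitor genes varied together from mouse to mouse. Deviations from the mean of the genotype on the log2(CPM + 1) scale had a Pearson correlation, given as a description over 7 mice, of 0.90 between *Nfkbia* and *Nfkbiz*, of 0.89 between *Nfkbiz* and *Tnfaip3* and of 0.83 between *Nfkbia* and *Tnfaip3*. Without wild type replicate 1 these were 0.86, 0.67 and 0.31, so the last rested on that mouse. *Nfkb1* ran the other way, at -0.83 with *Nfkbiz*, -0.64 with *Nfkbia* and -0.53 with *Tnfaip3*. Without wild type replicate 1 these were -0.87, -0.98 and -0.30. *Relb*, on few reads, also ran the other way, at -0.65, -0.55 and -0.66 with the same genes. Without that mouse its values were -0.45, -0.16 and -0.46. None is given for *Nfkb2*, whose spread is near counting error. The genes compared share their libraries and scaling factors. *Tnf* had little spread within a genotype to compare, with deviations from -0.054 to 0.062.

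Immediate-early genes, which cells switch on within minutes of stimulation or handling, were high in the same mice. Of these 26 were tested, of which 23 were higher and 3 lower in the knockout fit, with a median log2 ratio of 0.37, and none was called by edgeR's quasi-likelihood test. The median was 0.67 without wild type replicate 1, 0.23 without wild type replicate 3 and 0.20 without knockout replicate 4. *Nr4a2*, a nuclear receptor gene of the list, stood at 67.4, 39.4 and 25.97 CPM in wild type and 72.5, 88.5, 102.0 and 84.3 CPM in knockout mice, and passed 0.25 by DESeq2, by edgeR's likelihood ratio test, without the filter on low counts and without wild type replicate 1. The summed level of the list ran from 4106 to 8497 CPM in wild type and from 6740 to 12862 CPM in knockout mice, highest within each genotype in wild type replicate 1 and knockout replicate 4. *Jun*, the most abundant, stood at 995.1 ± 345.4 CPM in the wild type group (SD, n = 3) and 1492 ± 491.9 CPM in the knockout group (SD, n = 4), and *Fos* at 690.4 ± 312.5 CPM in the wild type group (SD, n = 3) and 1111 ± 366.0 CPM in the knockout group (SD, n = 4). Within genotypes the mean deviation of the 26 genes correlated, again as a description over 7 mice, at 0.96 with *Nfkbiz*, 0.80 with *Nfkbia*, 0.75 with *Tnfaip3* and -0.89 with *Nfkb1*. Without wild type replicate 1 these were 0.96, 0.84, 0.47 and -0.88. For *Relb*, *Rela*, *Rel* and *Tnfrsf1b* the values were -0.64, 0.11, -0.0012 and -0.032, and -0.45, 0.27, 0.47 and -0.48 without that mouse. No such value is given for *Tnf*, whose spread is below counting error, or for *Nfkb2*, whose spread is near it. The part of these genes' response in the levels of *Tnf*, *Nfkb1* and the inhibitor genes was not tested.

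**Figure D3:**
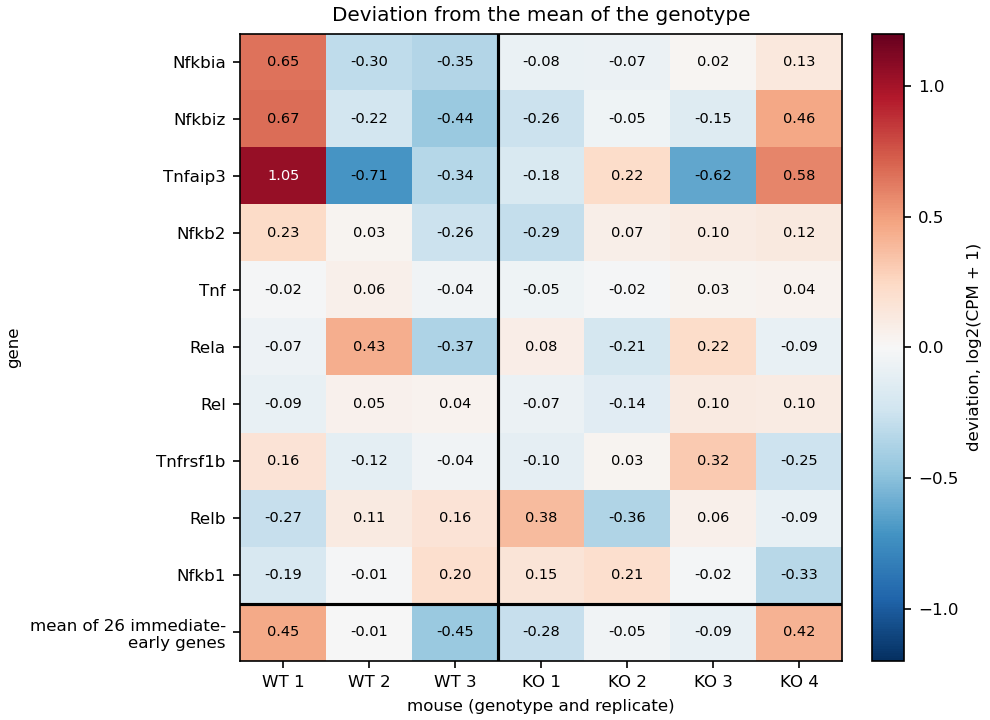
Deviation of each gene in each mouse from the mean of its genotype on the log2(CPM + 1) scale (colour and printed value), with the mean over 26 immediate-early genes in the bottom row. Wild type (WT) replicate 1 and knockout (KO) replicate 4 are the highest of their genotype for *Nfkbia*, *Nfkbiz*, *Tnfaip3* and the immediate-early genes and the lowest for *Nfkb1*.

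NF-κB dimers bind DNA at the κB site, and its consensus was searched on both strands in the 250 bases before the start site, taken from RefSeq windows on GRCm38.p6. A window was found for 7 of the 10 genes, with none for *Nfkb1*, *Relb* and *Nfkbiz*. The consensus matched in *Nfkbia*, *Tnfaip3*, *Rel* and *Nfkb2*, or 57.1% of 7 genes, and in no window of *Tnf*, *Rela* or *Tnfrsf1b*, while 5.42% of 9003 tested genes and 41.9% of 31 inducible targets of the pathway held it. The windows of *Nfkbia* (chr12:55492648-55492897), the most abundant inhibitor, of *Rel* (chr11:23770970-23771219), a subunit gene with separate ranges, and of *Tnf* (chr17:35202008-35202257), the gene with the largest log2 ratio of the 10, all on the minus strand, are shown 5′ to 3′ with matching bases in capitals.
Nfkbia: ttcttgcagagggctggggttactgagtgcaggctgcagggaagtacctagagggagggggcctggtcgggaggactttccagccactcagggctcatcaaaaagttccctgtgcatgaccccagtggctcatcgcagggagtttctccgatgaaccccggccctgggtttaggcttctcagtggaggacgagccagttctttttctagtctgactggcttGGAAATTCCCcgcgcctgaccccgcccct
Rel: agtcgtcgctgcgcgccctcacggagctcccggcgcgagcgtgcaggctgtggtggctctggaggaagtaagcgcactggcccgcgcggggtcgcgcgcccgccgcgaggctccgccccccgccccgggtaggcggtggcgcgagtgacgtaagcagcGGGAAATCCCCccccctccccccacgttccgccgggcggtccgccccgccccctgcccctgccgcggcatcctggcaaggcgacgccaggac
Tnf: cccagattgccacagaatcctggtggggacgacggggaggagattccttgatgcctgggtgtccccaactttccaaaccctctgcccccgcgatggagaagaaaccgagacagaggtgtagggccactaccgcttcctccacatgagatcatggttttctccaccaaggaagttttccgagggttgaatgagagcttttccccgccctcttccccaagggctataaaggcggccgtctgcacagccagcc

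In *Nfkbia* the match began 29 bases before the start site and in *Rel* the capitals, 92 bases before it, cover 3 overlapping matches. For *Tnfaip3* and *Nfkb2* the matching stretches are shown with short flanks, as these genes give a feedback inhibitor and a subunit. *Tnfaip3* held matches at chr10:19015526-19015535 and chr10:19015413-19015422 on the minus strand, 125 and 12 bases before the start site, in the first of its 2 windows, and no match in the other. In the first of 3 windows of *Nfkb2* they lay at chr19:46304698-46304708 and chr19:46304726-46304735 on the plus strand, 39 and 11 bases before it, and each of the other windows held 1 match. A match describes these letters and not binding, and no match says only that the letters are absent from the window.
Tnfaip3, distal: actcacgcgGGGACACCCCggggcggga
Tnfaip3, proximal: atttccatcGGAAATCCCCct
Nfkb2, distal: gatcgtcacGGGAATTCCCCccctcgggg
Nfkb2, proximal: gggccgaaaGGGGCTTTCCc

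The other genes of the pathway were read from 7 lists of 165 genes, of which 139 passed the filter on low counts. By edgeR's quasi-likelihood test 0 of the 139 were called at an adjusted p of 0.25 or 0.05, beside 0.0178% of all genes. An unadjusted p under 0.05 was found for 8 of them (5.76%), 3 higher and 5 lower in knockout cells, beside 3.63% of all genes. The genes named here are the 3 with the smallest p of each list, those without a read and, chosen after their values were seen, *Tnfrsf1a*, *Nkrf*, *Nkiras1*, *Tnfsf10*, *Tnfsf14* and *Vcam1*.

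Of other IκB proteins and NF-κB inhibitors 7 were tested, among them *Nkrf*, a repressing factor, and *Nkiras1*, a small GTPase, and 3 were higher and 4 lower in the knockout fit, with a median log2 ratio of -0.017. *Nfkbib*, which encodes IκBβ, stood at 32.5 CPM in wild type and 34.6 CPM in knockout cells. *Bcl3*, a nuclear IκB that pairs with p50 and p52, stood at 9.47 and 10.4 CPM, and *Nfkbil1* at 5.60 and 6.47 CPM. All of these overlapped between genotypes.

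Of genes of the IκB kinases and of receptor signalling 41 were tested, of which 17 were higher and 24 lower in the knockout fit, with a median log2 ratio of -0.063. *Map3k1*, a kinase upstream of JNK, ran from 47.1 to 60.2 CPM in wild type and from 34.7 to 46.5 CPM in knockout mice, without overlap, and its log2 ratio was -0.41 (SE 0.17). *Birc3*, which encodes the ubiquitin ligase cIAP2 and is an NF-κB target, stood at 27.4 CPM in wild type and 18.1 CPM in knockout cells, with overlap and a log2 ratio of -0.60 (SE 0.28). *Card9*, an adaptor of C-type lectin receptors in myeloid cells, was low, at 2.01 and 4.50 CPM. None of these passed (edgeR's quasi-likelihood test, adjusted p = 0.999 for each).

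Of deubiquitinases and other brakes 14 were tested, of which 8 were higher and 6 lower in the knockout fit, with a median log2 ratio of 0.034. *Tnip1*, which encodes the A20 partner ABIN1, stood at 65.7 CPM in wild type and 79.9 CPM in knockout cells, a log2 ratio of 0.28 (SE 0.15). *Otulin*, which removes linear ubiquitin chains, stood at 88.1 and 75.7 CPM, and both overlapped between genotypes. *Tnip3* was close to the floor, at 2.54 and 1.38 CPM, with ranges that did not overlap.

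Of 15 other ligands of the TNF family, *Tnfsf10*, the gene of TRAIL, at 13.8 and 11.6 CPM, and *Tnfsf14*, the gene of LIGHT, at 11.5 and 11.3 CPM, were the most abundant. Their means lay above that of *Tnf* in wild type cells and below it in knockout cells, and the contrast of *Tnf* chose the list. In wild type replicate 2 *Tnfsf14* lay below *Tnf*, at 5.59 against 9.78 CPM. Of the 15, *Tnfsf4*, *Tnfsf13* and *Cd70* had no read in any mouse, and the summed level ran from 50.3 to 56.2 CPM in wild type and from 38.3 to 51.2 CPM in knockout mice. Of these 7 were tested, with 1 higher and 6 lower in the knockout fit, with a median log2 ratio of -0.33. *Tnfsf8*, the CD30 ligand, stood at 5.69, 9.496 and 5.04 CPM in wild type and 1.55, 2.90, 2.05 and 4.47 CPM in knockout mice. Its ranges did not overlap, and the log2 ratio of -1.30 (SE 0.49) did not pass (edgeR's quasi-likelihood test, adjusted p = 0.999). *Tnfsf13b*, which encodes the B cell factor BAFF, stood at 1.81 and 3.19 CPM, and *Fasl*, the ligand of Fas, at 6.45 and 4.73 CPM, with overlap.

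Of TNF family, Toll-like and interleukin 1 family receptors 26 were tested, of which 11 were higher and 15 lower in the knockout fit, with a median log2 ratio of -0.15. *Il18r1*, a chain of the interleukin 18 receptor, stood at 40.3, 46.9 and 41.1 CPM in wild type and 31.4, 17.2, 28.3 and 20.6 CPM in knockout mice. The ranges did not overlap, and the log2 ratio of -0.80 (SE 0.22) did not pass (edgeR's quasi-likelihood test, adjusted p = 0.811), while it passed 0.25 by edgeR's likelihood ratio test and without the filter on low counts. The death receptor *Fas* stood at 8.41 and 4.58 CPM, with overlap. *Tlr2*, a receptor of bacterial lipoproteins, ran from 3.91 to 5.25 CPM in wild type and from 6.21 to 10.6 CPM in knockout mice, without overlap, and its log2 ratio was 0.77 (SE 0.38).

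Of genes that release TNF from the membrane or control its mRNA 15 were tested, of which 6 were higher and 9 lower in the knockout fit, with a median log2 ratio of -0.027. *Zfp36* encodes tristetraprolin, a protein that marks *Tnf* mRNA for decay, and stood at 342.9, 367.0 and 185.0 CPM in wild type and 309.6, 328.4, 434.3 and 346.5 CPM in knockout mice. Wild type replicate 3 was the low mouse, and the log2 ratio was 0.25 (SE 0.20). *Rhbdf2*, a partner of the protease that sheds TNF, stood at 10.9 and 13.9 CPM, and *Zc3h12c*, of the Regnase family, at 15.2 and 10.5 CPM, both with overlap.

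Of inducible targets 29 were tested, of which 16 were higher and 13 lower in the knockout fit, with a median log2 ratio of 0.080, and *Ccl20* and *Csf2* had no read in any mouse. *Ier3*, an early response gene, stood at 305.7, 254.4 and 183.9 CPM in wild type and 363.5, 241.7, 390.3 and 396.9 CPM in knockout mice, a log2 ratio of 0.49 (SE 0.19). *Ccl2*, a chemokine that attracts monocytes, stood at 9.19, 5.31 and 3.98 CPM in wild type and 4.26, 17.6, 15.5 and 17.6 CPM in knockout mice, a log2 ratio of 1.13 (SE 0.45). *Il1b*, the gene of the cytokine interleukin 1β, stood at 12.3, 6.70 and 10.9 CPM in wild type and 11.6, 16.4, 26.7 and 13.9 CPM in knockout mice, a log2 ratio of 0.78 (SE 0.32). Knockout means were the higher ones for these genes, but the genotypes overlapped. *Vcam1*, an adhesion molecule and the gene of the list with separate ranges, was lower, at 162.8, 226.2 and 173.6 CPM in wild type and 124.6, 151.5, 162.2 and 154.3 CPM in knockout mice, a log2 ratio of -0.34 (SE 0.15). None of these passed (edgeR's quasi-likelihood test, adjusted p = 0.999 for each).

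**Figure D4:**
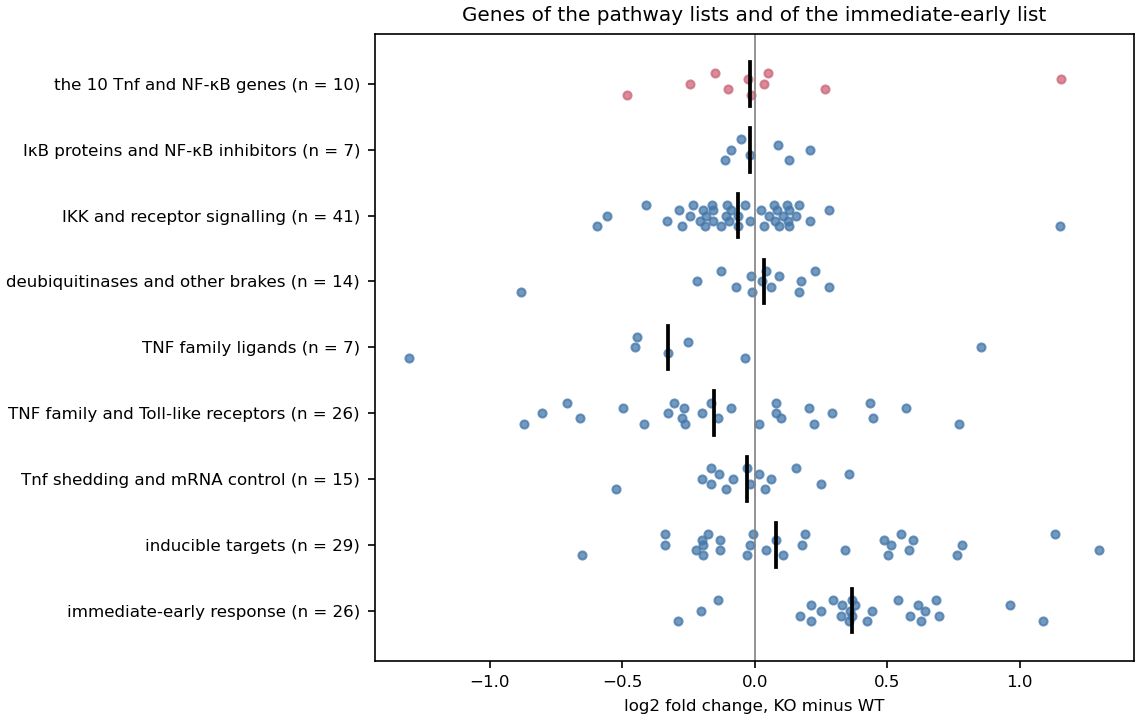
Log2 ratio of knockout to wild type (x axis) of each tested gene, 1 point per gene, in the 10 genes described here, the 7 lists of other pathway genes and the immediate-early list, with the median of each list as a black line. The medians of the pathway lists lie between -0.33 and 0.080, and that of the immediate-early list at 0.37.

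Myeloid cells can release TNF, so their markers are given beside it, and in bulk RNA fewer cells of a type and less RNA per cell cannot be told apart. Of macrophage genes 15 were tested, of which 2 were higher and 13 lower in the knockout fit, with a median log2 ratio of -0.54. All 18 listed had reads, and their summed level ran from 605.5 to 639.5 CPM in wild type and from 456.9 to 523.8 CPM in knockout mice, without overlap. *Vcam1*, the most abundant, stood on average at 187.6 CPM in wild type and 148.2 CPM in knockout cells, and *Csf1r* at 88.2 and 94.9 CPM. Of monocyte genes 14 were tested, of which 11 were higher and 3 lower in the knockout fit, with a median log2 ratio of 0.17, and the summed level ran from 4821 to 4985 CPM in wild type and from 5266 to 6338 CPM in knockout mice, without overlap. *Irf8* stood at 1371 and 1359 CPM and *Ly6c2* at 1229 and 1557 CPM. Of neutrophil genes 17 were tested, of which 16 were higher and 1 lower in the knockout fit, with a median log2 ratio of 0.55, with a summed level from 15893 to 18123 CPM in wild type and from 17810 to 33933 CPM in knockout mice, the highest in knockout replicate 3. Without that mouse 11 of the neutrophil genes, 13 of the monocyte genes and 3 of the macrophage genes were higher. *S100a8* stood at 3390 and 5459 CPM. None of these marker genes was called by edgeR's quasi-likelihood test with all mice, and the smallest adjusted p was 0.322, in the macrophage list. By that test an unadjusted p under 0.05 was found for 8 macrophage genes, all lower, 4 monocyte genes, all higher, and 0 neutrophil genes. Ranges were separate for 8 macrophage, 2 monocyte and 0 neutrophil genes. Over all genes these shares were 3.63% and 5.16%. The lists were written with earlier results of these data known. By DESeq2, by edgeR's likelihood ratio test and without the filter on low counts, *C1qc* of the macrophage list and *S100a4* of the monocyte list passed 0.25, and both had separate ranges. *C1qc*, which encodes a chain of complement C1q, stood at 36.5, 34.9 and 31.5 CPM in wild type and 18.6, 16.6, 16.03 and 17.4 CPM in knockout mice, a log2 ratio of -1.001 (SE 0.20). *S100a4*, which encodes a calcium-binding protein, stood at 252.3, 306.1 and 264.0 CPM in wild type and 473.2, 339.8, 578.7 and 353.9 CPM in knockout mice, a log2 ratio of 0.67 (SE 0.17). The part of these cells in the level of *Tnf* was not tested.

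Of lymphoid genes 19 were tested, of which 8 were higher and 11 lower in the knockout fit, with a median log2 ratio of -0.085, and a summed level from 824.4 to 955.5 CPM in wild type and from 632.8 to 946.4 CPM in knockout mice. *Nkg7* stood at 292.7 and 294.3 CPM and *Dntt* at 176.3 and 105.8 CPM. Of eosinophil, basophil and mast cell genes 12 were tested, of which 2 were higher and 10 lower in the knockout fit, with a median log2 ratio of -0.33, and a summed level from 3070 to 3266 CPM in wild type and from 2205 to 3081 CPM in knockout mice, with *Prg2* at 1185 and 910.4 CPM and *Mcpt8* at 804.9 and 651.4 CPM. Of erythroid genes 11 were tested, of which 2 were higher and 9 lower in the knockout fit, with a median log2 ratio of -0.38, and a summed level from 388.7 to 743.0 CPM in wild type and from 369.5 to 670.8 CPM in knockout mice, with *Tfrc* at 290.5 and 262.5 CPM and *Car2* at 110.6 and 81.5 CPM, while *Hba-a1*, *Hbb-bs* and *Hbb-bt* are listed at 0 in every mouse. Of progenitor genes 14 were tested, of which 4 were higher and 10 lower in the knockout fit, with a median log2 ratio of -0.15, and a summed level from 6967 to 8922 CPM in wild type and from 6565 to 8377 CPM in knockout mice.

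The genes whose levels were most like those of *Tnf* over the 7 mice, by Pearson's r of log2(CPM + 1) among 11264 genes and given as a description, were *Gm6712* (r = 0.99, Spearman's rho = 0.79), *Mast2* (0.96 and 0.75), *Itsn1* (0.96 and 0.86), *Msh3* (0.95 and 0.96) and *Tspoap1* (0.94 and 0.86). All 5 had separate genotype ranges, which the choice by likeness to *Tnf* over both genotypes fixes. *Gm6712* stood at only 1.97 CPM on average. *Tspoap1* stood at 121.7, 91.1 and 88.5 CPM in wild type and 206.5, 234.2, 192.4 and 275.6 CPM in knockout mice. The genes most like *Nfkb1* were *Zbed5* (r = 0.99, rho = 1), *Cops7a* (0.99 and 0.96), *Zfp53* (0.97 and 1), *Mtfr1* (0.97 and 0.89) and *Trim12c* (0.97 and 0.96). *Cops7a*, which encodes a subunit of the COP9 signalosome, stood at 42.9, 48.6 and 52.7 CPM in wild type and 40.9, 38.8, 36.7 and 28.6 CPM in knockout mice, lowest like *Nfkb1* in knockout replicate 4 and highest in wild type replicate 3.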

How the data were processed

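Libraries of 3′ transcript ends were made from lin- marrow RNA of 3 wild type and 4 knockout mice. The submitters' processing notes name STAR, DESeq2 and the GRCm38 build. The deposited files hold raw counts of reads per gene symbol, without normalization, and the strand counted is not stated. The 5 tally rows of each file were left out, and reads on no gene were 27.0% to 31.6% of a library. Labels gave the groups and replicate numbers.

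CPM, TMM factors, the filterByExpr filter (11265 genes kept) and the quasi-likelihood test (robust, no block, Benjamini-Hochberg over all genes kept) came from edgeR 4.0.16 under R 4.3.3, and were tested on simulated data. The SE is the absolute log2 ratio over the square root of the F statistic. DESeq2 1.42.0, limma 3.58.1, other filters and scalings, a replicate block and the omission of each mouse were alternatives. The 10 genes and all lists were chosen with earlier results of these data known. Other genes are named as the 3 with the smallest p of a pathway list, the 2 most abundant of a marker list or those at 0 in every mouse, and the 5 most like *Tnf* or *Nfkb1*. *Xist*, *Ddx3y*, *Tnfrsf1a*, *Nr4a2*, *C1qc*, *S100a4*, *Nkrf*, *Nkiras1*, *Tnfsf10*, *Tnfsf14*, *Vcam1* as a target and the genes called only in alternatives were chosen after their values were seen. GENCODE M21 gave gene coordinates and RefSeq the promoter windows. Replicates of a genotype differed by more than sampling noise. A planned comparison of proteins was not run.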

Additional observations from a re-analysis of the deposited data

Results flagged for a closer look

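Knockout replicate 1 lay far from the other 3 knockout mice in 2 of the 25 results examined for this, and about 1 in 20 such groups, here 1.25, is found by chance. *Nfkb2* stood at 9.499 CPM in that mouse, against 12.4 to 12.9 CPM in the others. That value rested on 49 reads, and the knockout SD of *Nfkb2* was 13.5% of the mean, where counting gives 13.3%. The summed level of the 14 progenitor genes stood at 6565 CPM, against 8086 to 8377 CPM. Most of that sum comes from *Mpo*, which neutrophil precursors share.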

How the results depend on the processing

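The 8 genes other than *Tnf* and *Nfkb1* stayed uncalled in all 18 other fits, and none had an unadjusted p under 0.05 except 2 without wild type replicate 1. *Tnf* and *Nfkb1* kept their direction in each fit, with log2 ratios from 1.13 to 1.19 and from -0.57 to -0.37. The number of all genes called at an adjusted p-value under 0.25 was 2, and 21 with DESeq2, 29 with edgeR's likelihood ratio test, 41 without a filter on low counts, 1 with at least 10 counts in every mouse, 2 to 7 when each mouse was left out (7 without wild type replicate 1 and 4 without knockout replicate 1) and 6 when the *Rn45s* share entered the fit as a covariate, an alternative chosen after seeing the data. With the replicate number as a block it was 1; same-numbered mice did not deviate together (correlations of -0.025, -0.21 and -0.16), so they share only a number. In the pathway lists, 1 receptor gene, *Il18r1*, was called with the likelihood ratio test and 1, the same gene, without the filter, and 0 to 1 inducible targets (*Cxcl2*) when each mouse was left out. In the marker and immediate-early lists, where the quasi-likelihood test with all mice called 0, DESeq2 called 5 (*C1qc*, *Dntt*, *Nr4a2*, *S100a4* and *Slc18a2*), the likelihood ratio test these and *C1qa* and *Prg3*, the fit without a filter these 5 and *Klf4*, *Klre1*, *Ly6g*, *Prg3* and *Rag1*, the *Rn45s* covariate *C1qc* and *Klre1*, and the fit without wild type replicate 1 *Nr4a2* and *Rag1*. Over all genes these fits called, in the same order, 21 of 10823 with an adjusted p, 29 of 11265, 41 of 16378, 6 of 11265 and 7 of 11529. Each of these lists had 11 to 26 tested genes in the quasi-likelihood fit with all mice. The number of genes higher ran over the fits without 1 mouse from 1 to 3 for the macrophage, 5 to 11 for the lymphoid, 1 to 3 for the eosinophil, basophil and mast cell, 2 to 4 for the erythroid and 2 to 4 for the progenitor list. It was 5 for the lymphoid list and 2 for the progenitor list under the block, 5 for the lymphoid list with the *Rn45s* covariate and 1 for the eosinophil list with at least 10 counts in every mouse. The immediate-early list had 20 to 24 genes higher without 1 mouse, with a median log2 ratio from 0.20 to 0.67.

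Log2 ratios near 0 changed sign. *Nfkbiz* was at 0.018 with limma-voom and 0.043 with the *Rn45s* covariate, *Tnfaip3* at -0.010 and *Tnfrsf1b* at 0.047 under the block. Without 1 mouse the ranges were -0.23 to 0.042 for *Nfkb2*, -0.13 to 0.28 for *Rela*, -0.22 to 0.42 for *Nfkbiz*, -0.25 to 0.80 for *Tnfaip3* and -0.14 to 0.070 for *Tnfrsf1b*. *Nfkbia* ran from 0.091 to 0.67 and *Relb* from -0.31 to -0.031 with no change of sign. The cause was not tested. The order of the 10 genes by level was the same in each of the 9 alternatives tried for it. With 6 mice the smallest exact p of the sign-flip test rises, so those fits say less about neighbours in the order. Depth limits *Tnf*, *Nfkb2* and *Relb*, with 34 to 114 reads each per library.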
